A study of Mus musculus with 12 samples.

Results

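The Fanconi and homologous recombination repair genes were described in haematopoietic clusters of mouse embryos, which sit on the wall of the aorta and from which blood stem and progenitor cells arise. They are 35 genes, chosen by name for their known roles in repair, with earlier results of these data known. All 35 were found among the 24138 genes of the deposited tables. The cells came from the aorta-gonad-mesonephros (AGM) region of C57BL/6 embryos and were sorted for CD31 and CD117 and against SSEA-1. There were 12 samples in 4 groups of 3: E11.5 S/G2/M, E11.5 G1, E10.5 S/G2/M and E10.5 G1. E10.5 and E11.5 are days of gestation. S/G2/M cells were mAG-positive cells of Fucci Green animals, and G1 cells were mKO2-positive cells of Fucci Red animals. Both reporters are fluorescent proteins whose stability follows the cell cycle. In every comparison of phases, phase and reporter strain therefore cannot be told apart. The deposited values are 1 FPKM (fragments scaled to transcript length and library size) per gene and group, as combined by the authors. No spread between samples can be given, and depth is unknown. Nothing in the labels ties the 3 samples of a group to separate litters, so the authors' p-values may reflect technical spread alone.

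The Fanconi pathway removes crosslinks that join both strands of DNA and stop the replication fork. A core complex recognises the stalled fork and attaches ubiquitin to the FANCD2 and FANCI proteins, which brings in nucleases that unhook the crosslink. The broken strand is then rebuilt by homologous recombination, in which the ends are resected and the BRCA proteins prepare them so that the sister chromatid can serve as template, while ATM, ATR and their downstream kinases hold the cell cycle. In humans, inherited loss of Fanconi genes leads to bone marrow failure, and in mice blood stem cells that lack the pathway are sensitive to aldehydes. Because a sister chromatid exists only after replication, recombination is used mainly in S and G2.

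No member changed in any of the 4 comparisons at a q-value under 0.05 by the authors' deposited tables, which have the columns of Cuffdiff's gene test. Among all tested genes, 0.701% passed between phases at E11.5, 0.655% between phases at E10.5, 4.07% by age in S/G2/M cells and 4.45% by age in G1 cells. For S/G2/M against G1, 29 of 35 members were higher in S/G2/M at E11.5, against 46.0% of tested genes, and 29 of 35 were higher at E10.5, against 47.1%. By fold, the members leaning most to S/G2/M at both ages included Brca1, Chek2 and Fanci. Fanci had no unadjusted p under 0.05 at either age by the authors' deposited tables. For E11.5 against E10.5, members were spread around no change in both phases, with 17 of 35 higher in S/G2/M cells (52.1% of tested genes) and 15 of 35 higher in G1 cells (50.9%). Chek1 was lower and Chek2 higher at E11.5 in both phases.

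All 35 members had enough reads to be tested by the authors in each of the 4 comparisons, and none was listed at 0 in a group. Their median level was 6.50 FPKM in E11.5 S/G2/M cells, 4.66 FPKM in E11.5 G1 cells, 5.92 FPKM in E10.5 S/G2/M cells and 5.14 FPKM in E10.5 G1 cells. The median over all tested genes was 8.92, 9.27, 8.15 and 8.45 FPKM in the same 4 groups. The members' median thus lay below that of all tested genes in each group, and furthest below in E11.5 G1 cells. Levels are quoted from the authors' 2 tables of phases, which were scaled separately, so a level at one age is set beside the other only as a guide. Across the 3 deposited tables that hold each group, a member's value differed at most 1.12-fold in E11.5 S/G2/M cells, 1.11-fold in E11.5 G1 cells, 1.02-fold in E10.5 S/G2/M cells and 1.06-fold in E10.5 G1 cells.

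**Figure D1:**
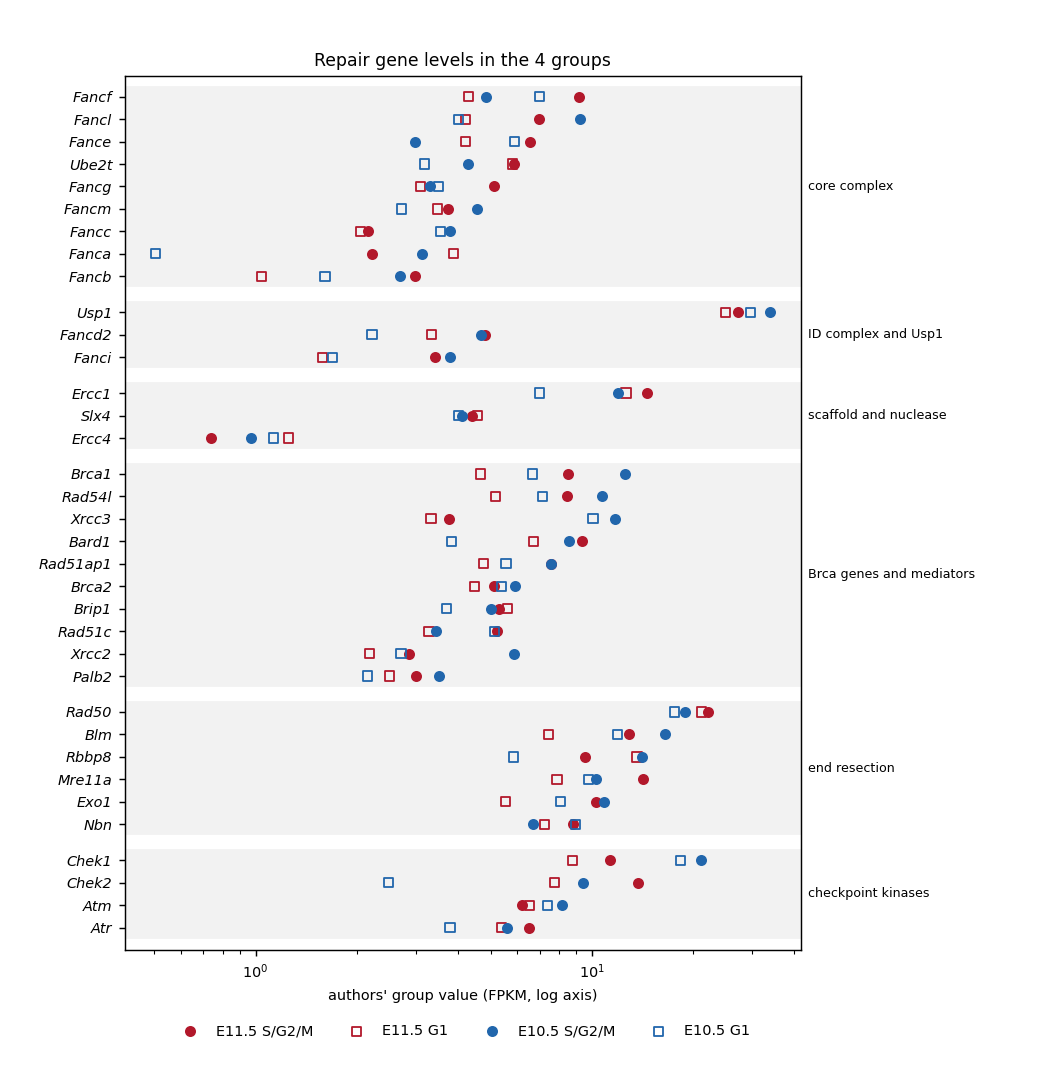
Level of each of the 35 repair genes in the 4 groups, as the authors' group value in FPKM on a log axis, with genes sorted by role (grey bands) and by mean level. Filled circles are S/G2/M cells, open squares are G1 cells, red is E11.5 and blue is E10.5. Usp1, at 25.1 to 33.9 FPKM, lies to the right of all others, and Fanca at E10.5 in G1 lies far to the left at 0.504 FPKM.

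Markers of other cell types differed between phases and between ages. The 6 genes fixed for the sort and for cluster identity (Pecam1, Kit, Cdh5, Runx1, Gfi1 and Tek) were above 0 in all 4 groups, with summed levels of 361, 427, 172 and 227 FPKM in E11.5 S/G2/M, E11.5 G1, E10.5 S/G2/M and E10.5 G1 cells. Gfi1 was low, at 0.250 to 1.63 FPKM. The summed level of 10 macrophage markers was 578 FPKM in S/G2/M cells against 2123 FPKM in G1 cells at E11.5, and 172 in S/G2/M cells against 282 FPKM in G1 at E10.5. That of 8 neuronal markers was 74.4 in S/G2/M cells against 132 FPKM in G1 at E11.5 and 88.6 in S/G2/M cells against 451 FPKM in G1 at E10.5. That of 8 mesenchymal markers was 42.4 in S/G2/M cells against 51.1 FPKM in G1 at E11.5 and 172 in S/G2/M cells against 174 FPKM in G1 at E10.5. The 7 erythroid markers found, of 8 listed, summed to 3036 in S/G2/M cells against 11744 FPKM in G1 at E11.5 and 19179 in S/G2/M cells against 15038 FPKM in G1 at E10.5. The markers named so far were above 0 in all 4 groups. The 6 germ cell markers summed to 15.4 in S/G2/M cells against 15.3 FPKM in G1 at E11.5, with Dazl listed at 0 in both and Nanos3 in G1, and to 7.87 in S/G2/M cells against 11.3 FPKM in G1 at E10.5, with Nanos3 listed at 0 in S/G2/M and Ddx4 in G1. By the authors' deposited tables, 7 of 10 macrophage markers fell between phases at E11.5 and 0 at E10.5, and 6 of 8 neuronal markers fell at E10.5 and 0 at E11.5 (all lower in S/G2/M). By age, macrophage markers rose (6 of 10 in S/G2/M, 10 of 10 in G1), mesenchymal markers fell (5 and 4 of 8), 4 of 8 neuronal markers fell in G1 and 0 in S/G2/M, Pecam1 and Runx1 rose in both phases, and Kit rose in S/G2/M. Of the erythroid markers, Hba-x and Hbb-bh1 fell in S/G2/M between phases at E11.5, and Hbb-bh1 fell by age in S/G2/M cells. The part of these cells in the results on the repair genes was not tested. In such bulk samples, fewer cells of a type and less RNA per cell cannot be told apart.

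The first question is whether repair gene RNA differed between cells in S, G2 or M phase and cells in G1. At E11.5, 87 of 12414 tested genes were called by the authors' deposited table, and 0 of the 35 members. At E10.5, 85 of 12984 genes were called, again with 0 members. At an unadjusted p under 0.05 by the authors' deposited tables, 2 members (5.71%) were higher in S/G2/M at E11.5, against 3.32% of all tested genes that were higher and 8.27% in either direction. At E10.5, 5 members (14.3%) were higher, against 2.40% of all tested genes that were higher and 6.69% in either direction. No member was lower at that threshold at either age. In direction alone, the 29 members higher in S/G2/M make up 82.9% at each age, as against under 50% of all tested genes. The median log2 fold change (S/G2/M over G1) of the 35 members was 0.37 at E11.5 and 0.45 at E10.5, against -0.06 and -0.04 for all tested genes. Over the members of at least 5 FPKM in both groups it was lower at both ages, at 0.27 at E11.5 (16 members) and 0.21 at E10.5 (15 members).

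The 2 comparisons of phases share no samples. Between them, 24 of 35 members (68.6%) were higher in S/G2/M at both ages, while 27.3% of the 11818 genes tested at both ages were. Ercc4 was the single member lower at both. Fancb, Fanci, Fancl, Brca1, Rad54l and Chek2 were at least 1.5-fold higher at both ages. Of these, Fancb, Fanci, Fancl and Rad54l had no unadjusted p under 0.05 at either age by the authors' deposited tables. Another 5 members were higher only at E11.5 (Fance, Fancf, Fancg, Rad51c and Nbn), and 5 only at E10.5 (Fanca, Brip1, Slx4, Rbbp8 and Atm). Whether the phase difference of any member differed between the ages was not tested, since that needs values per sample.

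**Figure D2:**
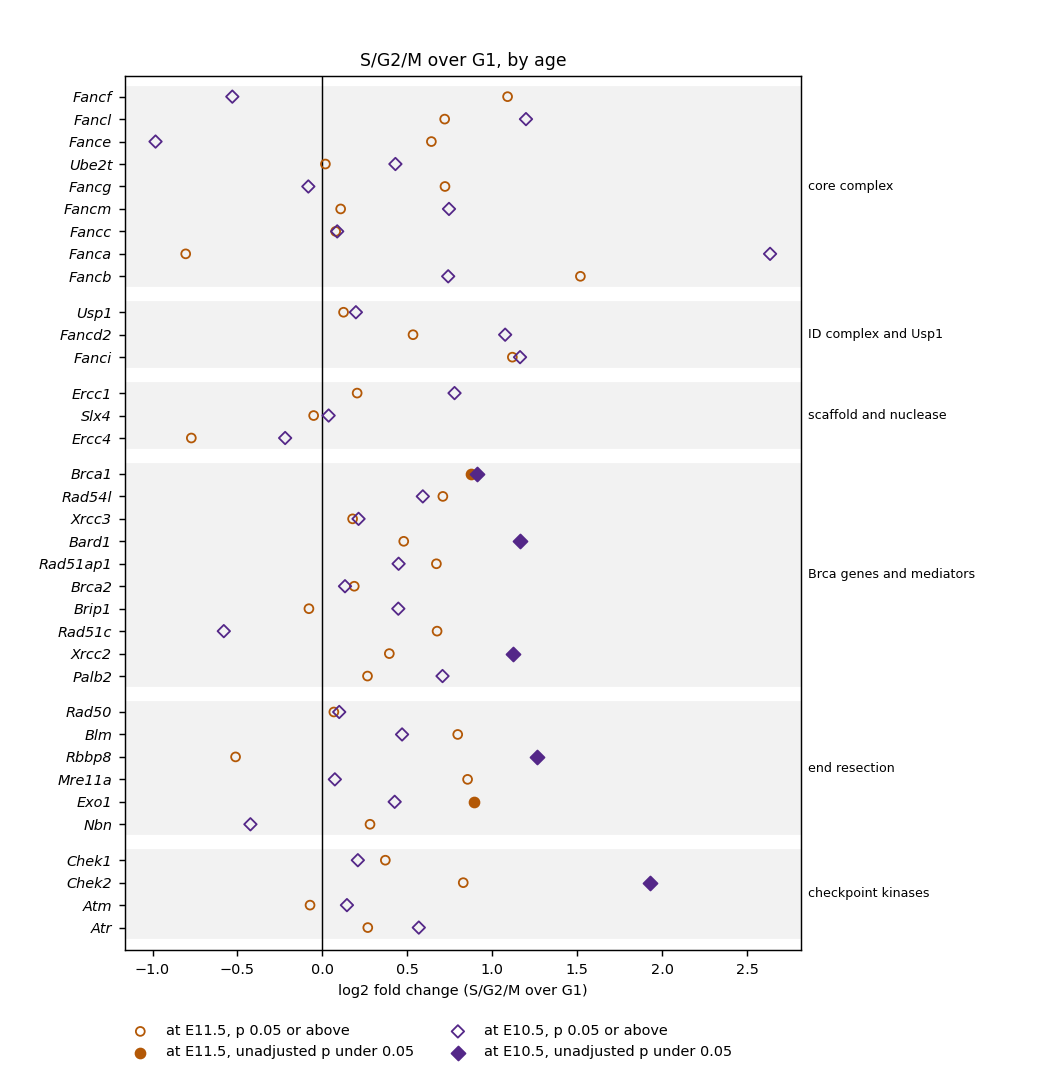
Log2 fold change of S/G2/M over G1 for each member, with circles for E11.5 and diamonds for E10.5. Filled symbols have an unadjusted p under 0.05 by the authors' deposited tables, 2 at E11.5 and 5 at E10.5, all to the right of 0, and no symbol reached a q-value under 0.05.

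The core complex proteins come first in the pathway. Fancl encodes the ubiquitin ligase of the complex. It had 6.95 FPKM in S/G2/M cells against 4.22 FPKM in G1 at E11.5, and 9.20 in S/G2/M cells against 4.01 FPKM in G1 at E10.5, and was thus higher in S/G2/M at both ages. Ube2t encodes the ubiquitin-conjugating enzyme that works with it, and its levels were nearly equal at E11.5, at 5.88 FPKM in S/G2/M and 5.81 FPKM in G1. At E10.5 Ube2t had 4.28 FPKM in S/G2/M and 3.18 FPKM in G1. Fancb, an X-linked gene for a subunit that binds FANCL, had 2.99 in S/G2/M cells against 1.04 FPKM in G1 at E11.5, a 2.86-fold difference with p = 0.116 in the authors' deposited table, and 2.69 in S/G2/M cells against 1.61 FPKM in G1 at E10.5. Fancm encodes the DNA translocase that anchors the complex to DNA, and it was 1.08-fold higher in S/G2/M at E11.5 and 1.68-fold higher at E10.5.

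Fanca, a core subunit and the gene most often mutated in human Fanconi anaemia, leaned opposite ways at the 2 ages. It had 2.22 FPKM in S/G2/M cells against 3.88 FPKM in G1 at E11.5, and 3.13 in S/G2/M cells against 0.504 FPKM in G1 at E10.5. The 6.21-fold difference at E10.5 was the largest of any member there, yet its p was 0.124 in the authors' deposited table and it rests on a G1 value under 1 FPKM. The adaptor subunits Fance and Fancf behaved the other way round. Fance had 6.56 in S/G2/M cells against 4.21 FPKM in G1 at E11.5 and 2.98 in S/G2/M cells against 5.89 FPKM in G1 at E10.5. Fancf had 9.16 in S/G2/M cells against 4.30 FPKM in G1 at E11.5 and 4.83 in S/G2/M cells against 6.98 FPKM in G1 at E10.5. Neither had an unadjusted p under 0.05 by the authors' deposited tables at either age. Fancg and Fancc, 2 further subunits, had fold changes between 0.94 and 1.65 (S/G2/M over G1), and Fancc was within 1.06-fold of equality at E11.5 and 1.06-fold at E10.5.

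The ubiquitinated pair and its deubiquitinase were all higher in S/G2/M at both ages. Fanci had 3.43 FPKM in S/G2/M cells against 1.58 FPKM in G1 at E11.5, a 2.17-fold difference. At E10.5 it had 3.79 in S/G2/M cells against 1.69 FPKM in G1, a 2.24-fold difference. Its p was 0.296 at E11.5 and 0.19 at E10.5 in the authors' deposited tables. Fancd2 had 4.82 in S/G2/M cells against 3.33 FPKM in G1 at E11.5 and 4.68 in S/G2/M cells against 2.22 FPKM in G1 at E10.5, with p = 0.314 and 0.0757 in the authors' deposited tables. Usp1, whose product removes the ubiquitin from FANCD2, was the most abundant member in all 4 groups, at 27.3 in S/G2/M cells against 25.1 FPKM in G1 at E11.5 and 33.9 in S/G2/M cells against 29.6 FPKM in G1 at E10.5. Its phase difference was small beside its level, 1.09-fold and 1.15-fold.

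Among the nuclease genes, Slx4, the scaffold that holds the unhooking nucleases, had the narrowest range of all members as a ratio, between 4.01 and 4.57 FPKM over the 4 groups. Ercc1 and Ercc4 encode the subunits of one nuclease, yet their RNA levels per kilobase were far apart. Ercc1 had 14.6 in S/G2/M cells against 12.6 FPKM in G1 at E11.5 and 1.71-fold more in S/G2/M than the 6.97 FPKM of G1 at E10.5, and Ercc4, the least abundant member by mean level, had 0.735 in S/G2/M cells against 1.25 FPKM in G1 at E11.5 and 0.970 in S/G2/M cells against 1.13 FPKM in G1 at E10.5. Reads over Ercc1 may be shared with the overlapping gene Cd3eap, because the sources used here do not give the use of strand.

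Brca1 was the single member with an unadjusted p under 0.05 at both ages. BRCA1 and BARD1 form a ubiquitin ligase that promotes end resection and recombination. Brca1 had 8.53 FPKM in S/G2/M cells against 4.66 FPKM in G1 at E11.5, a 1.83-fold difference with p = 0.0479 and q = 0.598 in the authors' deposited table. At E10.5 it had 12.6 in S/G2/M cells against 6.68 FPKM in G1, a 1.88-fold difference with p = 0.012 and q = 0.457 in the authors' deposited table. With the E11.5 groups in the other order, the authors' deposited table gave p = 0.0514, so that mark depended on the table. Bard1 had 9.33 in S/G2/M cells against 6.70 FPKM in G1 at E11.5 (p = 0.29 in the authors' deposited table) and 8.57 in S/G2/M cells against 3.82 FPKM in G1 at E10.5 (p = 0.0156 and q = 0.521 in the authors' deposited table). The lowest Bard1 value was that of E10.5 G1 cells. Both partners were therefore higher in S/G2/M at both ages, by 1.39-fold to 2.24-fold.

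Of the other mediators of recombination, Brca2, which acts on the resected end, was nearly flat, with 5.10 in S/G2/M cells against 4.48 FPKM in G1 at E11.5 and 5.92 in S/G2/M cells against 5.40 FPKM in G1 at E10.5. Palb2, which links BRCA1 to BRCA2, had 3.01 in S/G2/M cells against 2.50 FPKM in G1 at E11.5 and 3.51 in S/G2/M cells against 2.15 FPKM in G1 at E10.5. Brip1, a helicase that binds BRCA1, had 5.31 in S/G2/M cells against 5.61 FPKM in G1 at E11.5 and 5.03 in S/G2/M cells against 3.69 FPKM in G1 at E10.5. Brca2 and Palb2 were thus higher in S/G2/M at both ages and Brip1 at E10.5 only, without an unadjusted p under 0.05 by the authors' deposited tables. Xrcc2, a recombination gene, had 2.86 in S/G2/M cells against 2.18 FPKM in G1 at E11.5 and 5.89 in S/G2/M cells against 2.71 FPKM in G1 at E10.5, where p was 0.0446 and q 0.715 in the authors' deposited table. Rad54l and Rad51ap1, which act in strand exchange, were 1.63-fold and 1.59-fold higher at E11.5 and 1.51-fold and 1.36-fold higher at E10.5.

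Rad51c and Xrcc3, whose products form a complex, are uncertain. The deposited locus of Rad51c is 34.3 times as long as the annotated gene and overlaps 12 other protein-coding genes, and that of Xrcc3 is 5.15 times as long and overlaps Klc1. The loci of Fancc and Fancl were 2.20 and 2.41 times as long as the annotated genes. Fanca, Fancc, Fancd2, Fancf, Fanci, Fancl, Rad54l, Xrcc3 and Mre11a overlap another annotated protein-coding gene, and reads there may be shared too. Rad51c had 5.24 in S/G2/M cells against 3.28 FPKM in G1 at E11.5 and 3.44 in S/G2/M cells against 5.14 FPKM in G1 at E10.5, with p = 0.777 and 0.762 in the authors' deposited tables. Xrcc3 had 3.76 in S/G2/M cells against 3.32 FPKM in G1 at E11.5 and 11.7 in S/G2/M cells against 10.1 FPKM in G1 at E10.5, so its phase difference was small at each age.

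End resection exposes single strands at a break. Exo1, an exonuclease that lengthens the resected stretch, had 10.3 FPKM in S/G2/M cells against 5.54 FPKM in G1 at E11.5 (1.86-fold, p = 0.0397 and q = 0.562 in the authors' deposited table). At E10.5 it had 10.9 in S/G2/M cells against 8.09 FPKM in G1. Blm, the helicase of Bloom syndrome, had 12.9 in S/G2/M cells against 7.42 FPKM in G1 at E11.5 and 16.5 in S/G2/M cells against 11.9 FPKM in G1 at E10.5. Both genes were higher in S/G2/M at each age. The break-binding complex of MRE11, RAD50 and NBN showed no shared shift. Rad50 had 22.2 in S/G2/M cells against 21.2 FPKM in G1 at E11.5 and 18.9 in S/G2/M cells against 17.7 FPKM in G1 at E10.5. Mre11a had 14.2 in S/G2/M cells against 7.88 FPKM in G1 at E11.5, a 1.81-fold difference with p = 0.0735 in the authors' deposited table, and 10.3 in S/G2/M cells against 9.78 FPKM in G1 at E10.5. Nbn had 8.81 in S/G2/M cells against 7.25 FPKM in G1 at E11.5 and 6.69 in S/G2/M cells against 8.97 FPKM in G1 at E10.5. In all 4 groups Rad50 was the most abundant of the 3 per kilobase.

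Rbbp8 encodes CtIP, which starts resection together with that complex. It lies on chromosome 18 (11633276 to 11743207, mm10). It had 9.57 FPKM in S/G2/M cells against 13.6 FPKM in G1 at E11.5, and 14.1 in S/G2/M cells against 5.86 FPKM in G1 at E10.5, where the difference was 2.40-fold with p = 0.0058 and q = 0.332 in the authors' deposited table. It had the smallest q of any member in that comparison. The E10.5 G1 value stood below the other 3 groups, which lay between 9.57 and 14.1 FPKM. The E10.5 G1 cells also had the highest summed neuronal markers, whose part in this value was not tested. The cells had been sorted for CD31 and CD117, and whether neuronal cells were among them was not tested.

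Among the checkpoint kinases, Chek2, on chromosome 5 (110840017 to 110874133, mm10), encodes CHK2, which acts below ATM. It had 13.8 FPKM in S/G2/M cells against 7.75 FPKM in G1 at E11.5 (p = 0.107 and q = 0.735 in the authors' deposited table), and 9.44 in S/G2/M cells against 2.48 FPKM in G1 at E10.5 (3.81-fold, p = 0.00675 and q = 0.349 in the authors' deposited table). The lowest value was again that of E10.5 G1 cells. Chek1, on chromosome 9 (36708482 to 36726658, mm10), encodes CHK1, which acts below ATR. It had 11.3 in S/G2/M cells against 8.76 FPKM in G1 at E11.5 and 21.2 in S/G2/M cells against 18.3 FPKM in G1 at E10.5, a small phase difference. Atr, which responds to stalled forks, had 6.50 in S/G2/M cells against 5.40 FPKM in G1 at E11.5 and 5.61 in S/G2/M cells against 3.79 FPKM in G1 at E10.5. Atm, which responds to double-strand breaks, had 6.21 in S/G2/M cells against 6.53 FPKM in G1 at E11.5 and 8.15 in S/G2/M cells against 7.38 FPKM in G1 at E10.5.

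The start regions of 4 members are shown because they had an unadjusted p under 0.05 by the authors' deposited tables (Brca1, Bard1 and Chek2 between phases, Chek1 between ages) and RefSeq has a window for them. Each window runs from 250 bases before to 50 bases after the start in GRCm38.p6, at chr11:101551906-101552205 for Brca1, chr1:71102923-71103222 for Bard1 and chr9:36726609-36726908 for Chek1, all on the minus strand, and at chr5:110839733-110840032 for Chek2, on the plus strand. Each is written 5′ to 3′ on the strand of its gene. Capitals mark matches, on either strand, to TTTGGCGC, TTTCCCGC, TTTGCCGC or TTTCGCGC (forms of the E2F motif of S-phase genes), to TTTGAA (the CHR motif of mitotic genes) or to CCAAT (the CCAAT box). No matches overlapped.
Brca1: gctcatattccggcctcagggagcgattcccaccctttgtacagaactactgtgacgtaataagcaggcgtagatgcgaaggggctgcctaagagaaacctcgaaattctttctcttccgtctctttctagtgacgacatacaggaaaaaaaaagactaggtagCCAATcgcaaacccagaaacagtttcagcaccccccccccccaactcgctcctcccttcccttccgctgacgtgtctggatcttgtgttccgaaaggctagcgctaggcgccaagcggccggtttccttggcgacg
Bard1: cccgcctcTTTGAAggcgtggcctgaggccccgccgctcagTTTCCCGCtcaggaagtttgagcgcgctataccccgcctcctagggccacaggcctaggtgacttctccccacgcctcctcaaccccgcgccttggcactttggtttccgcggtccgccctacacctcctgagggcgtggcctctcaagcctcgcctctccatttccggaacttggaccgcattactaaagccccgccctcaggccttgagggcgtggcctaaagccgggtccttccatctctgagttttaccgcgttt
Chek2: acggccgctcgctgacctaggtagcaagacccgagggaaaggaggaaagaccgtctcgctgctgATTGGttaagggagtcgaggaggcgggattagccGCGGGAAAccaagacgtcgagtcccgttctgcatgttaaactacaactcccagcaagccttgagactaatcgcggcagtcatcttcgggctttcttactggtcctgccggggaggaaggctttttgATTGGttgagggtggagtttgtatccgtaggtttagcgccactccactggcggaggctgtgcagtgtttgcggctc
Chek1: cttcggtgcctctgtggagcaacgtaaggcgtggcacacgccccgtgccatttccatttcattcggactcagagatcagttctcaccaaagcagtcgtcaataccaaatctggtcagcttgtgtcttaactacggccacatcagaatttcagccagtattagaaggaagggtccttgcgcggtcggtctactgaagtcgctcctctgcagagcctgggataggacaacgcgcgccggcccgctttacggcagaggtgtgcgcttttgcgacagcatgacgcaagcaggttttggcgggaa

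The Bard1 window held 1 E2F and 1 CHR match, and that of Chek2 held 1 E2F and 2 CCAAT matches. That of Brca1 held 1 CCAAT match, and that of Chek1 held no full match. The Chek1 window ends in gcgggaa, the other-strand form of TTTCCCGC without its last base. A match crossing the end of the window would therefore have been missed. Windows were found for 28 of 35 members, 30 windows in all. A member was counted if any of its windows matched, while the share over all windows counts each window. An E2F match was present in 5 of the 28 (Bard1, Brca2, Chek2, Fancg and Rad51c) and in 2.26% of all 32851 windows. A CHR match was present in 1 of 28, Bard1, and in 17.9% of all windows. A CCAAT match was present in 19 of 28 and in 37.4% of all windows. A match is a description of the letters and shows no binding.

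Beyond the 35 members, none of 42 other recombination and crosslink repair genes passed between phases in the authors' deposited tables. At an unadjusted p under 0.05 there, 6 of the 42 (14.3%) were higher at E11.5 and 3 (7.14%) at E10.5, beside 3.32% and 2.40% of all tested genes, and 0 were lower. Their median log2 fold change was 0.20 at E11.5 and 0.12 at E10.5. Of 11 genes for end joining, the repair route that needs no template, 0 passed, 0 had an unadjusted p under 0.05, and the medians were -0.28 and -0.01. Of 25 S-phase genes, 0 passed at either age, with 0 and 4 at an unadjusted p under 0.05 by the authors' deposited tables and medians of 0.22 and 0.28. Of 25 mitotic (G2 and M) genes, 3 rose at E11.5 (Plk1, Top2a and Ube2c) and 6 at E10.5 (Plk1, Cdk1, Kif11, Top2a, Ube2c and Prc1). At an unadjusted p under 0.05 by the authors' deposited tables, 20 of the 25 were higher at each age, and the medians were 1.05 and 1.10. The member medians of 0.37 and 0.45 lay between those of the S-phase and mitotic genes. At E10.5, however, the median of 0.21 over the 15 members of at least 5 FPKM in both groups was below the S-phase median. That S-phase median had no such limit on level, so these values are not directly comparable.

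**Figure D3:**
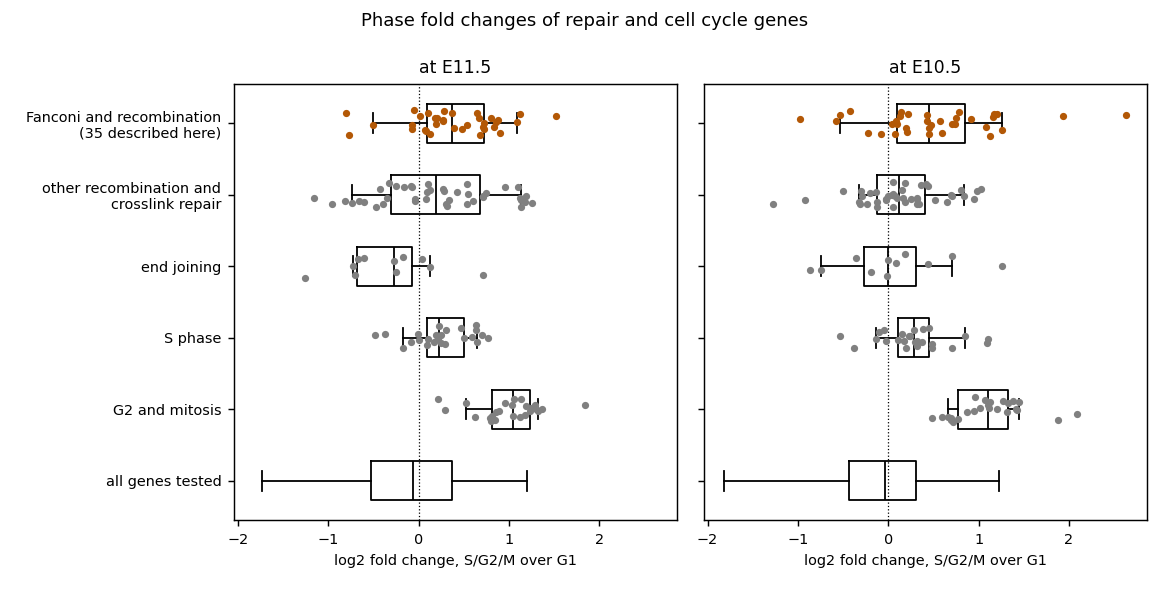
Log2 fold change of S/G2/M over G1 for the 35 members, 4 other lists and all tested genes, at E11.5 (left) and E10.5 (right). Points are genes, boxes span the quartiles with the median as a line, and whiskers reach the outer 5% on each side. The members centre on 0.37 and 0.45, and the G2 and mitosis genes on 1.05 and 1.10.

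The fold of called genes in the members' range of levels is given as a description. At E11.5, the 14 genes called among 8974 between 1.25 and 27.3 FPKM in the higher group, above 0 in both, differed at least 2.86-fold, and at E10.5 the 14 called among 10122 between 1.13 and 33.9 FPKM differed at least 3.02-fold. Of the members, 1 reached that fold at E11.5 (Fancb) and 2 at E10.5 (Fanca and Chek2).

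None of 17 tested p53 targets, genes induced by DNA damage, passed at E10.5, and none of 16 passed at E11.5. At an unadjusted p under 0.05 by the authors' deposited tables, 0 were higher and 2 lower in S/G2/M at E11.5, and 1 was higher and 2 lower at E10.5. The lower ones make up 12.5% of the tested targets at E11.5 and 11.8% at E10.5, beside 4.95% and 4.28% of all tested genes. Their median log2 fold change was -0.55 at E11.5 and -0.32 at E10.5.

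The second question is whether repair gene RNA differed between the ages within a phase. In S/G2/M cells, 520 of 12768 tested genes were called by the authors' deposited table, and in G1 cells 577 of 12953, with 0 of 35 members in either phase. At an unadjusted p under 0.05 by the authors' deposited tables, 1 member (2.86%) was marked in S/G2/M and 3 (8.57%) in G1, below the 13.9% and 15.4% of all tested genes. The median log2 fold change (E11.5 over E10.5) of the members was -0.01 in S/G2/M and -0.09 in G1, against 0.03 and 0.02 for all tested genes. In G1 it was -0.22 over the 11 members of at least 5 FPKM in both groups.

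These 2 comparisons share no samples with each other, but each shares groups with the comparisons of phases. Values below are from the authors' deposited tables of the ages. Across both phases 9 members were higher and 12 were lower at E11.5, while 35.8% and 31.9% of 12190 genes tested in both were. The 9 were Fancd2, Brip1, Bard1, Slx4, Ercc1, Rad50, Atr, Chek2 and Ube2t, and the 12 were Fancc, Fanci, Brca1, Brca2, Rad54l, Xrcc2, Xrcc3, Blm, Exo1, Atm, Chek1 and Usp1. In direction alone, Brca1 was lower and Bard1 higher at E11.5 in both phases. Brca1 was 1.41-fold lower in S/G2/M and 1.35-fold lower in G1 cells (p = 0.152 and 0.332 in the authors' deposited tables). Bard1 was 1.13-fold higher in S/G2/M and 1.85-fold higher in G1 cells (p = 0.623 and 0.0652 in the authors' deposited tables).

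**Figure D4:**
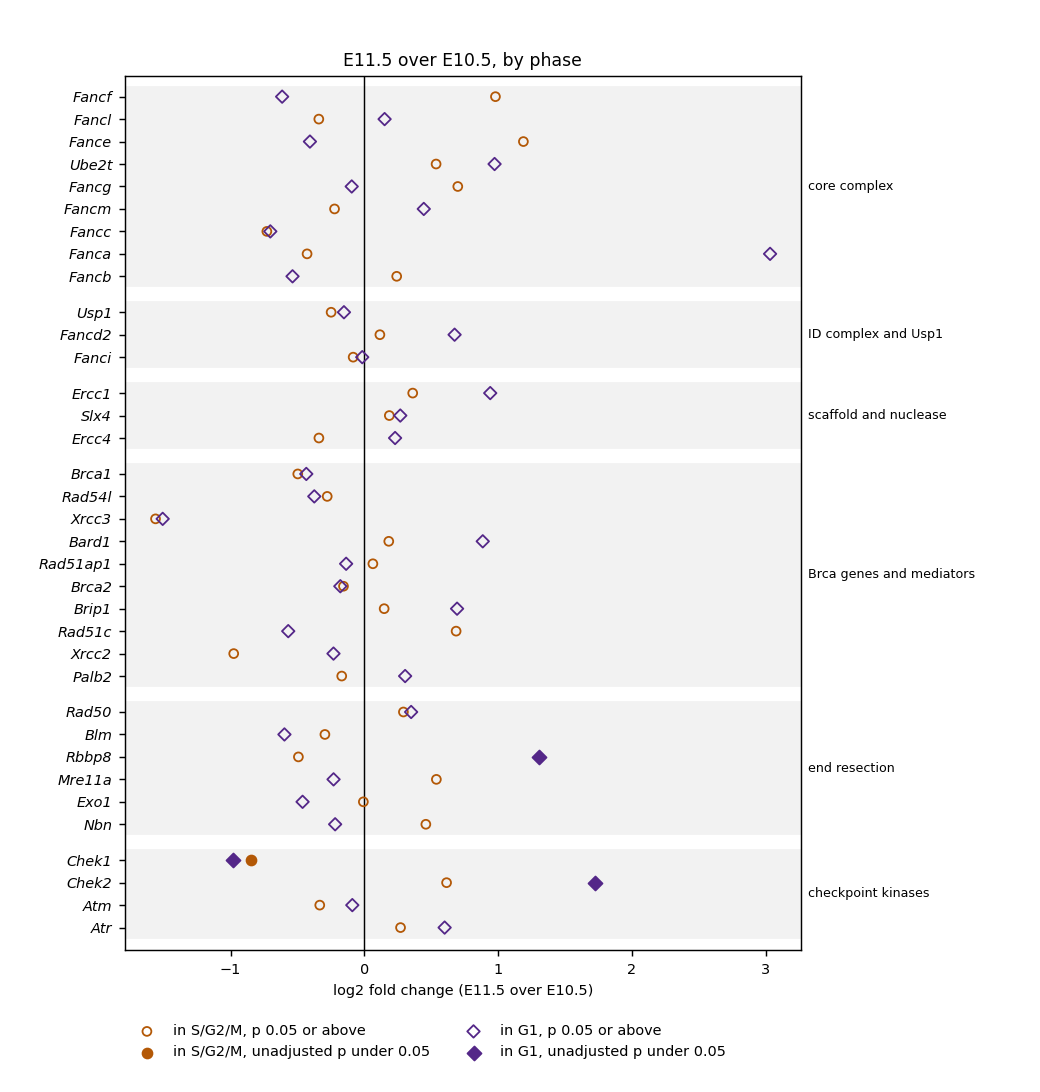
Log2 fold change of E11.5 over E10.5 for each member, with circles for S/G2/M cells and diamonds for G1 cells. Filled symbols have an unadjusted p under 0.05 by the authors' deposited tables: Chek1 in both phases on the left, and Rbbp8 and Chek2 in G1 on the right.

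Chek1 was the single member with an unadjusted p under 0.05 in both phases. It had 11.8 FPKM at E11.5 against 21.1 FPKM at E10.5 in S/G2/M cells, 1.80-fold lower with p = 0.0198 and q = 0.216 in the authors' deposited table. In G1 cells it had 8.85 FPKM at E11.5 against 17.5 FPKM at E10.5, 1.98-fold lower with p = 0.023 and q = 0.216 in the authors' deposited table. Both E11.5 values were below both E10.5 values. Chek2 was higher at E11.5, with 14.3 at E11.5 against 9.37 FPKM at E10.5 in S/G2/M cells (1.53-fold, p = 0.167 in the authors' deposited table) and 7.82 at E11.5 against 2.37 FPKM at E10.5 in G1 cells (3.30-fold, p = 0.0147 and q = 0.164 in the authors' deposited table). It was the single member at least 1.5-fold higher at E11.5 in both phases. The upstream kinases differed less, with Atr 1.21-fold and 1.52-fold higher and Atm 1.26-fold and 1.06-fold lower at E11.5 in S/G2/M and G1 cells.

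Rbbp8 had 9.94 FPKM at E11.5 against 14.0 FPKM at E10.5 in S/G2/M cells, and 13.9 at E11.5 against 5.59 FPKM at E10.5 in G1 cells. The G1 difference, 2.48-fold with p = 0.0051 and q = 0.0851 in the authors' deposited table, had the smallest q of any member in the 4 comparisons. It uses the same low E10.5 G1 group as the phase difference of Rbbp8 at E10.5. The G1 differences by age of Chek2, Bard1 and Fanca share that group with their phase differences at E10.5, so these are not separate observations. In the same G1 comparison by age, 10 of 10 macrophage markers rose and 4 of 8 neuronal markers fell by the authors' deposited table, and their part in these differences was not tested. Fanca had 2.32 at E11.5 against 3.12 FPKM at E10.5 in S/G2/M cells and 3.95 at E11.5 against 0.482 FPKM at E10.5 in G1 cells, where p was 0.0922 in the authors' deposited table. Xrcc3 had 3.93 at E11.5 against 11.6 FPKM at E10.5 in S/G2/M cells and 3.36 at E11.5 against 9.56 FPKM at E10.5 in G1 cells, the largest differences downward among members, with p = 0.189 and 0.313 in the authors' deposited tables and with the uncertainty of its locus. Called genes in the members' range of levels differed at least 1.99-fold by age in S/G2/M cells and 2.18-fold in G1 cells, which 2 members and 4 members reached. Fance and Fancf were 2.28-fold and 1.97-fold higher at E11.5 in S/G2/M cells, and 1.33-fold and 1.53-fold lower in G1 cells.

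Among the genes around the pathway, 0 of 42 other recombination and crosslink repair genes passed by age in S/G2/M, where 2 were higher and 2 lower at an unadjusted p under 0.05 by the authors' deposited table, and 1 rose in G1. Their medians were 0.0058 and -0.12. The one that rose, listed as Atrip, had 24.3 FPKM at E11.5 against 2.96 FPKM at E10.5 in G1 cells (q = 0.00694 in the authors' deposited table). Its row joins Atrip, the partner of ATR, with Trex1, an overlapping exonuclease gene, and the 2 cannot be told apart. In the same comparison the summed macrophage markers were higher in E11.5 G1 cells (all 10 rose in the authors' deposited table), and their part in this row was not tested. Of the p53 targets, Sesn1, a stress-response gene, rose in G1, to 42.1 FPKM at E11.5 against 16.3 FPKM at E10.5 (q = 0.0381 in the authors' deposited table), and 0 of 16 passed in S/G2/M, with 1 higher at an unadjusted p under 0.05 by the authors' deposited table. Of 11 end joining genes 0 passed in either phase in the authors' deposited tables, with 1 at an unadjusted p under 0.05, lower, in S/G2/M. Of 25 S-phase genes 0 passed, with 1 and 2 lower at an unadjusted p under 0.05 in S/G2/M and G1. Of 25 mitotic genes, Mki67, a marker of cycling cells, rose in both phases. It had 80.9 FPKM at E11.5 against 39.2 FPKM at E10.5 in S/G2/M cells (q = 0.00971 by the authors' deposited table) and 68.6 at E11.5 against 24.8 FPKM at E10.5 in G1 cells (q = 0.03 by the authors' deposited table). Ccnb2, which encodes cyclin B2, fell to 62.1 FPKM at E11.5, against 140.1 FPKM at E10.5, in S/G2/M cells (q = 0.0239 by the authors' deposited table).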

How the data were processed

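RNA was sequenced from 12 sorted samples in 4 groups of 3. The submitters' processing notes name mm10, TopHat, Cuffdiff and CASAVA 1.4, with no role given, while the labels' protocols name bowtie 0.12.2 and mm8. The authors deposited 6 gene tables. Per the file headers these hold 1 FPKM value for each of 2 groups with the p-value and q-value of the authors' test, and name the S/G2/M group G2. Deposited q-values matched Benjamini-Hochberg values over the tested genes (largest relative difference 4.93e-06), and a q under 0.05 was taken as a call. No column holds a single sample, so no test was run here and no spread, interval or depth can be given. The design foresaw count or limma tests for values per sample, and the authors' calls for tables of this kind.

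Members were matched by symbol, keeping the row of the highest value. No member shared a row with another gene. Fold changes are ratios of the 2 FPKM values of 1 table, without a pseudocount, and a list is described by its counts and median. The code for counts and medians was checked on simulated tables, which bears on its arithmetic alone. Deposited starts count from 0, and 1 was added. Start windows are from RefSeq (GRCm38.p6), and gene spans from GENCODE (GRCm38, mm10). The members and lists were chosen with earlier results of these data known. The rule for named genes covered all members, and genes outside them only where they passed. The 6 roles, the 4 windows shown and the comparison of called folds were chosen after the values were seen. Alternatives were thresholds of 0.01 and the authors' mark at 0.085, a fold of at least 2, minimum levels of 1 and 5 FPKM, a pseudocount of 1, scaling by the median and, for phases, the other group order. Software was matplotlib 3.10.9, pandas 2.3.3, numpy 2.4.6 and Python 3.11.15.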

Additional observations from a re-analysis of the deposited data

How the results depend on the processing

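The count of members called was 0 in all 4 comparisons with the authors' mark at 0.085. The smallest member q, 0.0851 for Rbbp8 by age in G1 in the authors' deposited table, lay just above that mark. For phases, the count was also 0 in the deposited tables of the other group order. A q under 0.01, a fold of at least 2, and at least 1 or 5 FPKM in the higher group gave 0 too. Those stricter settings only remove calls from a count that was already 0, so they could not have changed it. No gene could pass a q of 0.01 between phases, where the smallest q in the authors' deposited tables was 0.0102 at E11.5 and 0.0101 at E10.5. In the other order, chosen for this count after seeing the data, the number of members with an unadjusted p under 0.05 at E11.5 was 1, without Brca1, against 2. The number of members with such a p was unchanged in all 4 comparisons when the higher group had to reach 5 FPKM, also added after seeing the data. The median log2 fold change of the members moved by 0.1 or more only with at least 5 FPKM in both groups, to 0.21 (15 members) against 0.45 for S/G2/M against G1 at E10.5, and to -0.22 (11 members) against -0.09 for E11.5 against E10.5 in G1. The cause was not tested. In S/G2/M cells by age the median was 0.028 with at least 1 FPKM in both groups against -0.0077, so it has no direction. With scaling by the median, a pseudocount of 1 and the other order, the single member that changed direction was Ube2t at E11.5, at -0.014 in the other order against 0.017. No paired analysis was possible because the deposited tables hold 1 value per group and none per sample, and for the same reason no replicate could be left out. Depth is unknown, and low values such as those of Fanca and Ercc4 are the least certain.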
